A study of Mus musculus with 16 samples.

Results

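The genes described here are 49 developmental transcription factors of the mouse that lie outside the Hox clusters, namely Pax1 to Pax9, 7 Lhx genes, Six2 to Six6, Irx1 to Irx6, Dlx1 to Dlx6, 8 Nkx genes, Msx1 and Msx2, Emx1 and Emx2, Otx1 and Otx2, and Vax1 and Vax2. They were taken by name, as 49 of the 22367 protein-coding genes of the GENCODE vM1 annotation of NCBIM37 (mm9), and every one was found there. For each gene, the peaks of histone H3 methylation within 3000 bp of the annotated gene start (the start) and over the gene body were read from 12 deposited peak lists. The rule uses gene names and positions, and no expression or peak value.

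These proteins bind DNA through a homeodomain, a paired domain or both, and set regional and cell identity in the embryo. In most adult tissues the regulators of other lineages are silent and carry H3K27me3, which Polycomb repressive complex 2 deposits over wide domains. H3K4me3 marks the starts of active genes, a start with both marks is called bivalent and is typical of developmental regulators in stem cells, and H3K9me3 is best known from heterochromatin. In skin, Dlx3 and Msx2 act in hair follicle differentiation, and Pax3 in the melanocyte lineage.

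The lists come from ChIP-seq of nucleosomes released by micrococcal nuclease from sorted skin cells of wild-type CD1 x FVB mice. The labels give them as male, while the study's methods say that most analyses used both sexes. CD34+ / α6-integrin+ hair follicle stem cells of the bulge were taken at PD22 to PD25, in early anagen (EA-HFSCs), and at PD38 to PD44, in late catagen (LC-HFSCs). CD34- / α6-integrin+ cells of the same ages, which hold mostly epidermis and lower outer root sheath and thus several cell types, are called non-EA-HFSCs at the first age and non-LC-HFSCs at the second. Each chromatin preparation pooled 15 to 20 mice, reads of independent pools were merged before peaks were called, and 1 list exists for each mark in each population. Differences between populations therefore have no replicate check, no test between them was possible, and the 95% Wilson intervals given cover counting error only. The lists differ widely in length. For H3K4me3 they hold 21482 peaks in EA-HFSCs, 14718 in LC-HFSCs, 24498 in non-EA-HFSCs and 18996 in non-LC-HFSCs, for H3K27me3 25534, 1909, 17488 and 15273 in the same order, and for H3K9me3 42277, 1414, 17873 and 18236. Read numbers are not part of the lists, and the study's methods state that more reads were used for LC-HFSCs than for EA-HFSCs. A peak missing from a list means that none passed the threshold, and less mark and weaker enrichment over the IgG background cannot be told apart. Where 4 values stand in a row below, the HFSC values of early anagen and late catagen come first and the non-HFSC values of early anagen and late catagen after them.

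The 250 bp upstream of 6 starts are shown as examples of the patterns of marks found in EA-HFSCs. In each pattern the members with the highest score were taken, of H3K27me3 or, where it was absent, of H3K4me3. Equal scores were ordered by peak width, so the 6 stretches are strong cases rather than typical ones. Each is written 5′ to 3′ on the strand of its gene, from NCBIM37, with every CG dinucleotide in capitals, and ends at the base before the annotated start. Irx5 (chr8:94881445-94881694, plus strand) and Dlx3 (chr11:94981153-94981402, plus strand) carried H3K4me3 without H3K27me3. Vax2 (chr6:83661008-83661257, plus strand) and Nkx2-2 (chr2:147019980-147020229, minus strand) carried both marks. Six6 (chr12:74040682-74040931, plus strand) and Pax1 (chr2:147187411-147187660, plus strand) carried H3K27me3 without H3K4me3.
Irx5: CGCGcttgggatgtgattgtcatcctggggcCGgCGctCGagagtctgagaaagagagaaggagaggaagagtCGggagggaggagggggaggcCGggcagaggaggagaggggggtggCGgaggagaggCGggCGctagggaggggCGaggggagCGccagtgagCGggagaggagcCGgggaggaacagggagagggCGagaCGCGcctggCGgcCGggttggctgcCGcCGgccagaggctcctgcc
Dlx3: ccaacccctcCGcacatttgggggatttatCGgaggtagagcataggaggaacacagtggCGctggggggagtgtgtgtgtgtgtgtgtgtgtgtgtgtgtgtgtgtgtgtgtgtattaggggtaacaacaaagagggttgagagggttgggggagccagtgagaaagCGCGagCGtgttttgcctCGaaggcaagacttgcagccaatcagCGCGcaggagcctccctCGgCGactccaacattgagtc
Vax2: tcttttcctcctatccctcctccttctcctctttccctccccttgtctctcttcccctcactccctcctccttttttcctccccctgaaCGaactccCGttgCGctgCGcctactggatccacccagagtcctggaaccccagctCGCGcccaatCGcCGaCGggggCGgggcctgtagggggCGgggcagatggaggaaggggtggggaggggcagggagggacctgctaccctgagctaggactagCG
Nkx2-2: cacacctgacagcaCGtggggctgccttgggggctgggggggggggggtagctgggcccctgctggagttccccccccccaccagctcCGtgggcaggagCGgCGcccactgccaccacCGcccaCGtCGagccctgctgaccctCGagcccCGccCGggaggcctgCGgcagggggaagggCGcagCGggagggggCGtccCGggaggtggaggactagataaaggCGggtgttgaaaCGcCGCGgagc
Six6: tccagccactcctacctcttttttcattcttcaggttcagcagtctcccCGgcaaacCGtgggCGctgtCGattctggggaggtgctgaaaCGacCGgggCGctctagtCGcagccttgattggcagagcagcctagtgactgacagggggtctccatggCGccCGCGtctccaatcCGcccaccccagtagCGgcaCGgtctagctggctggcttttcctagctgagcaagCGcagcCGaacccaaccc
Pax1: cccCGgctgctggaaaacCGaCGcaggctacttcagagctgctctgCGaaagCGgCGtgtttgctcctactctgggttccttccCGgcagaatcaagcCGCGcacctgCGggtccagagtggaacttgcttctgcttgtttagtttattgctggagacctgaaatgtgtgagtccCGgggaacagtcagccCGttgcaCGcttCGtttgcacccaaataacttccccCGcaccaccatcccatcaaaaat
The Irx5 stretch holds 21 CG dinucleotides, which 19.0% of all promoters of this length reach, and the Dlx3 stretch 11, which 44.0% reach. Vax2 and Nkx2-2 have 12 and 19, counts reached by 41.2% and 23.1% of promoters, and Six6 and Pax1 have 16 and 15, reached by 30.6% and 32.9%. All 6 stretches overlapped a called peak of the marks named for them, and those of Irx5, Vax2, Nkx2-2, Six6 and Pax1 also overlapped an H3K9me3 peak of EA-HFSCs.

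The sorted populations were first checked against H3K4me3 at the starts of marker genes. Cd34, whose product defined the sort, carried H3K4me3 in both HFSC lists and in neither non-HFSC list, and carried H3K27me3 in both non-HFSC lists. Counting any annotated transcript start, 8, 8, 7 and 7 of 8 bulge markers and 5 of 5 basal keratinocyte markers in every population had H3K4me3. Hair matrix and inner layer markers had it at 5 of 5 in every population, and differentiated epidermis markers at 2, 2, 3 and 3 of 5, so H3K4me3 at these starts did not set the sorted cells apart from the hair matrix lineage. Among markers of other cell types, 3, 3, 3 and 2 of 6 melanocyte genes, 1 of 5 endothelial genes, 1 of 5 leukocyte genes, 3, 3, 3 and 2 of 5 fibroblast genes and 2 of 5 Schwann and neural genes had a peak. Tyr, Tyrp1, Sox10, Pecam1, Cdh5, Ptprc, Cd3e and Pdgfrb, which define these cell types, had no H3K4me3 peak at the start in any list. The part of such cells in the peaks described below was not tested.

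H3K27me3 covered most of the 49 starts in anagen HFSCs and in both non-HFSC populations, and fewer in LC-HFSCs. In EA-HFSCs 40 of 49 members had a peak (81.6%, interval 68.6% to 90.0%), where 13.0% of all protein-coding genes did. LC-HFSCs had 21 (42.9%, interval 30.0% to 56.7%) against 3.39% of all genes. The 2 non-HFSC lists each had 44 (89.8%, interval 78.2% to 95.6%), against 15.6% and 11.9% of all genes. The 98 other homeobox genes had 78, 45, 81 and 82 starts with H3K27me3, and the 39 Hox cluster genes 24, 8, 19 and 19. By counts, 20 members had H3K27me3 in all 4 populations, where 3.22% of all genes did, 19 in 3, 6 in 2, and Six5, Irx2, Irx4 and Irx5 in none, while 18.5% of all genes had it in at least 1.

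**Figure D1:**
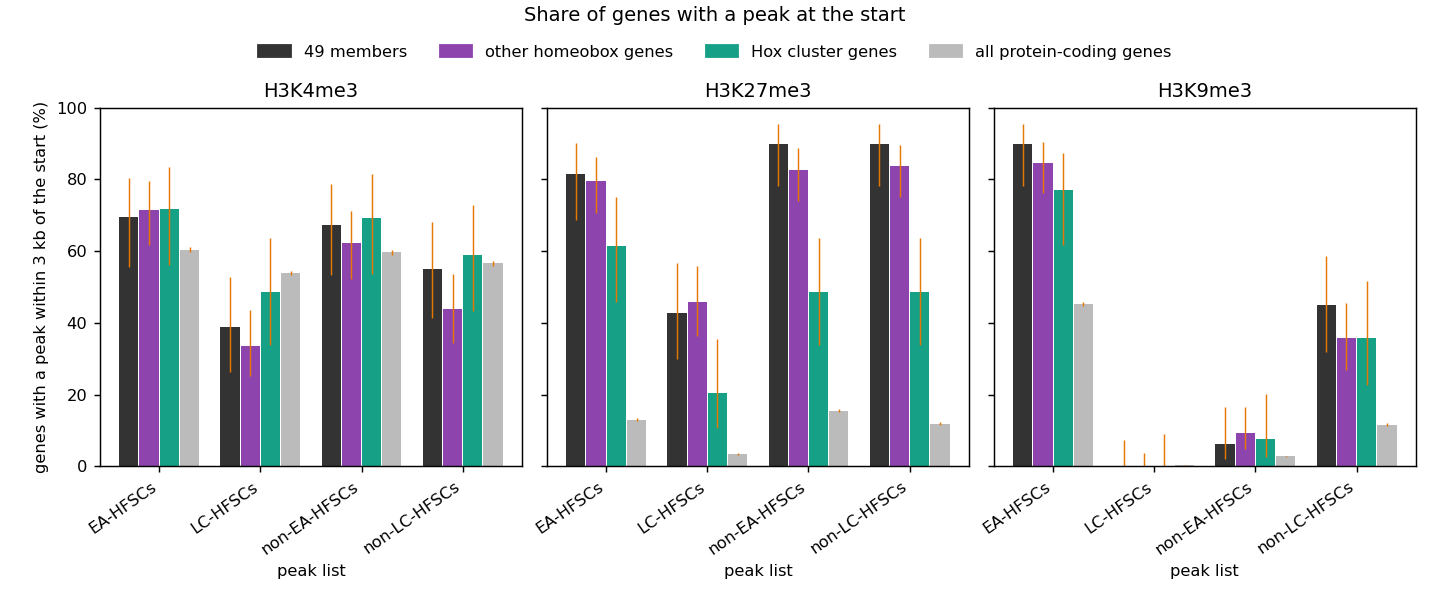
Percentage of genes with a peak within 3 kb of the start (y axis) in each of 12 peak lists (x axis, 1 panel per mark), for the 49 members, 98 other homeobox genes, 39 Hox cluster genes and all 22367 protein-coding genes. Bars are shares and orange lines 95% Wilson intervals for counting error. The member bars for H3K27me3 stand at 81.6%, 42.9%, 89.8% and 89.8%, and the bars of all genes at or below 15.6%.

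These H3K27me3 peaks were wide. The widest peak touching each window had a median of 25214 bp over the 40 members with one in EA-HFSCs (range 3000 to 48638 bp), while all genes with a peak there had a median of 3581 bp. The medians of members were 8866 bp in LC-HFSCs, 26726 bp in non-EA-HFSCs and 18709 bp in non-LC-HFSCs, beside 3755, 4833 and 2956 bp over all genes. Widths are those of single called peaks, and a covered stretch can be split into several. With peaks less than 1 kb apart merged, the member medians in the 4 populations were 33132, 11200, 33284 and 26517 bp. In EA-HFSCs 31 of the 40 windows were covered from end to end, 35 had a peak of 10 kb or wider, and 35 held a peak among the top 10% of that list by score. Of all genes with an H3K27me3 peak there, 13.9% had one of 10 kb or wider and 43.1% one among the top 10%. Their windows had a median of 3484 bp covered, and those of the 40 members 6001 bp. The share of all genes with a window covered from end to end was not counted. The score is the peak caller's 10 times negative log10 p-value and was compared only within a list. At 5 kb downstream of the start, H3K27me3 peaks covered 75.5% of members in EA-HFSCs and 4.02% of all genes. At 5 kb upstream the shares were 67.3% of members and 4.35% of all genes.

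**Figure D2:**
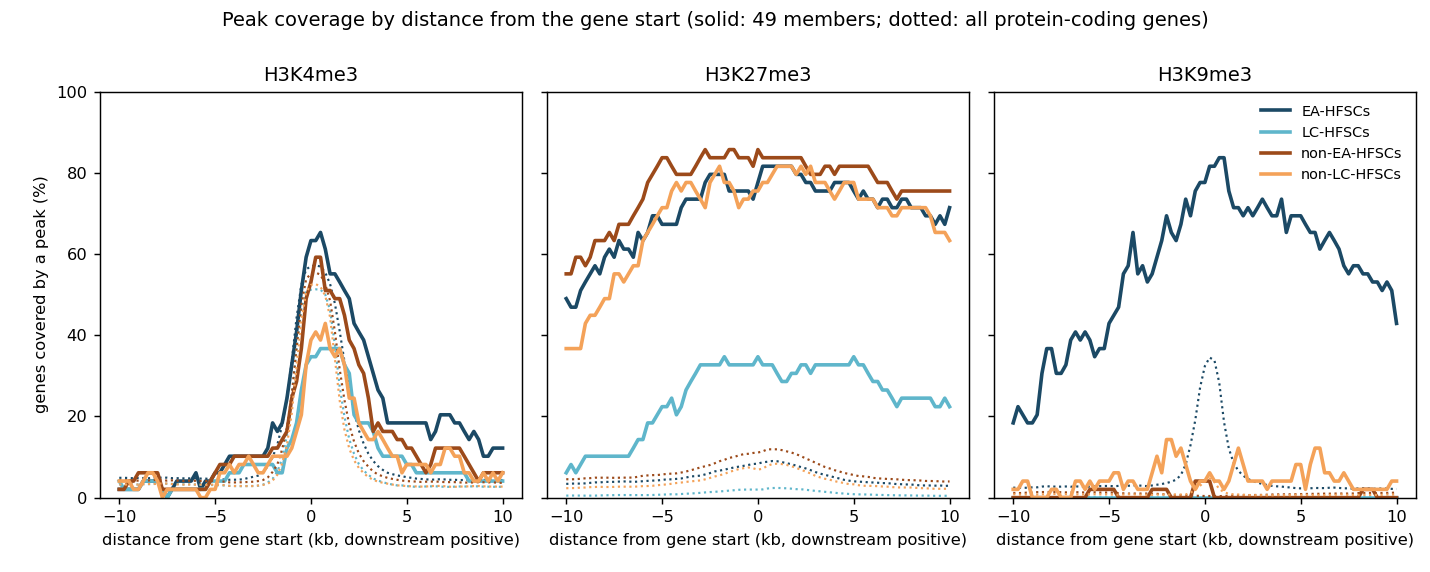
Percentage of genes covered by a peak (y axis) at each distance from the gene start (x axis, kb, downstream positive), 1 panel per mark. Solid lines are the 49 members and dotted lines all protein-coding genes, coloured by population. At the start itself H3K27me3 covered 77.6% of members in EA-HFSCs, against 34.7% in LC-HFSCs, and the line for H3K4me3 falls to 6.12% by 5 kb upstream in EA-HFSCs.

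The families differed in which of their starts were covered. All 9 Pax, all 7 Lhx and all 8 Nkx genes had H3K27me3 in EA-HFSCs, and the median coverage of their windows was 6001 bp, which is the whole window. Of Six2 to Six6, 4 of 5 were covered, among the Dlx genes 4 of 6, and of the Msx pair only Msx1. The Irx genes had H3K27me3 at 1 of 6 in EA-HFSCs and at 3 of 6 in non-EA-HFSCs. Of all genes 13.0% and 15.6% had it in these lists, so the Irx count in EA-HFSCs was near that of genes in general. H3K4me3 was found at 6 of 6 Irx and 6 of 6 Dlx starts in EA-HFSCs, at 2 of 9 Pax starts and at 4 of 7 Lhx starts. It was at 60.4% of all genes, which the Lhx share was close to.

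**Figure D3:**
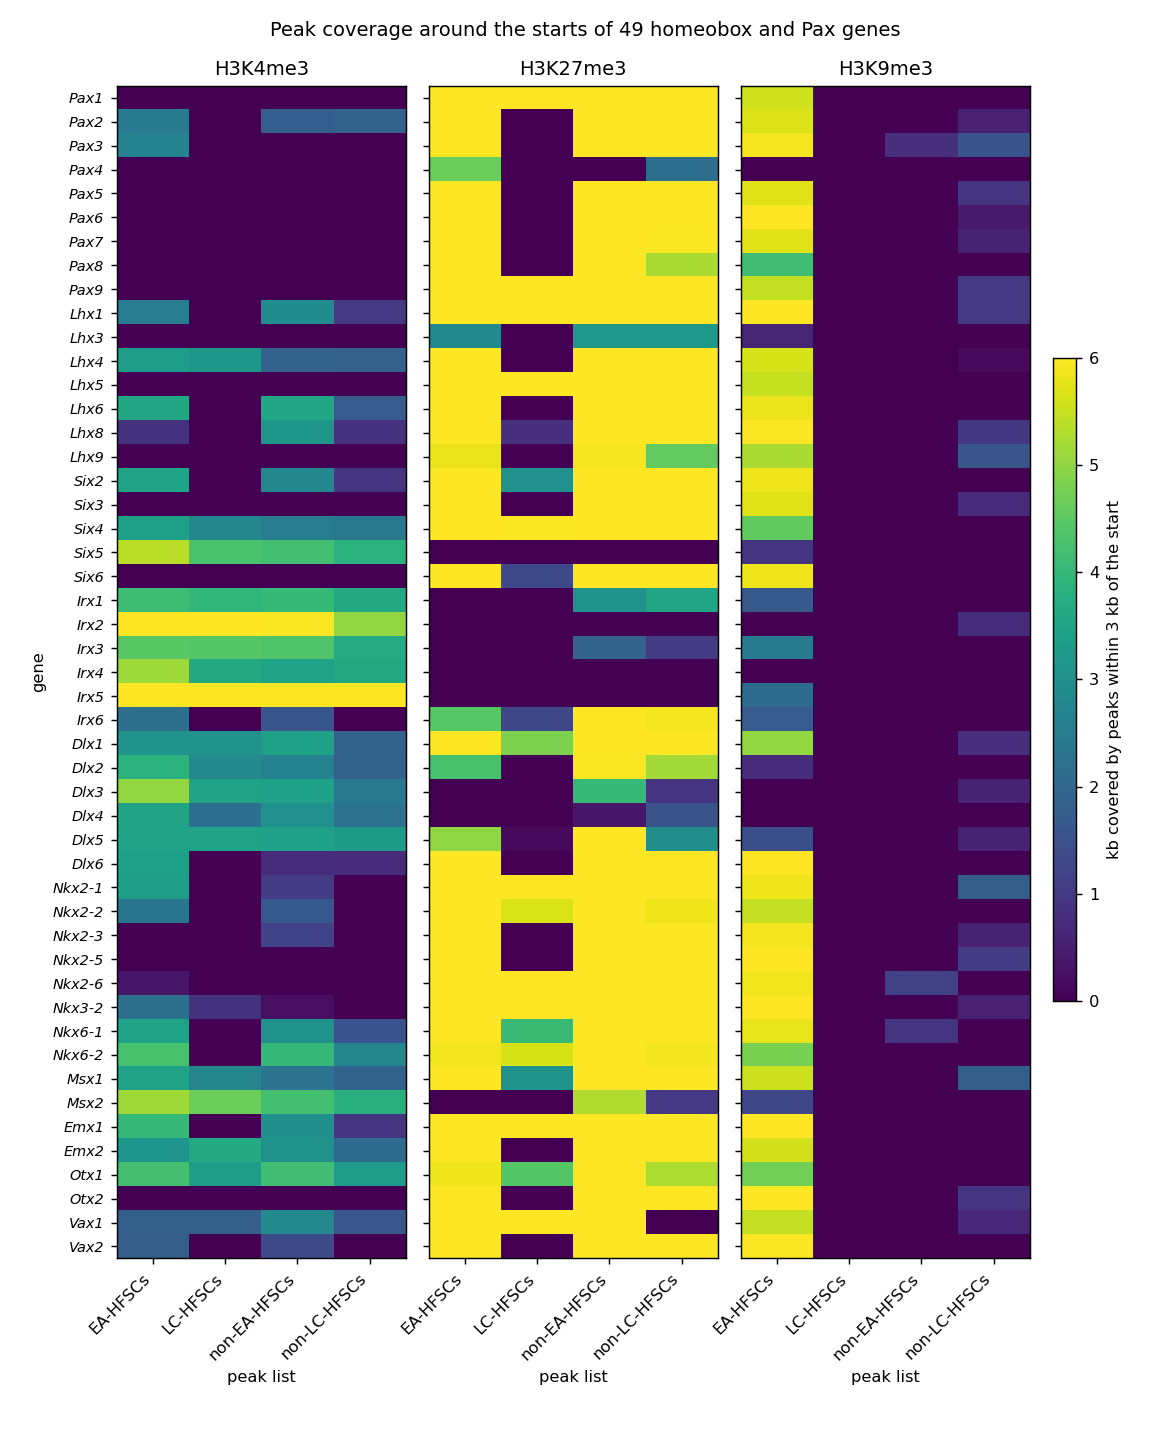
Kilobases covered by peaks within 3 kb of the start (colour, 0 to 6 kb) for each of 49 genes (rows) in each of 12 peak lists (columns, 1 panel per mark). Irx1 to Irx5, Dlx3, Dlx4, Msx2 and Six5 have no H3K27me3 in EA-HFSCs, and the H3K9me3 column of LC-HFSCs is at 0 for all 49.

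Of the 49 members, 9 had no H3K27me3 peak at the start in either HFSC list. They are Six5, a homeobox gene beside the myotonic dystrophy kinase gene, Irx1, Irx2, Irx3, Irx4 and Irx5 of the Iroquois family, which patterns heart, limb and neural tissue, and Dlx3, Dlx4 and Msx2. All 9 had H3K4me3 in all 4 populations. Their H3K4me3 scores in EA-HFSCs had a median of 3100, a value that MACS gave to 590 peaks of that list and that cannot rank them further, with 1123 for Dlx4 as the lowest.

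Irx2 (chr13:72766245-72771644) had the widest H3K4me3 peak of all members in both HFSC lists, with 18228, 17762, 13770 and 10492 bp. Irx5, a regulator of heart and retina (chr8:94881695-94885351), had 17781, 15342, 13981 and 13115 bp and was the widest in both non-HFSC lists. Across the populations the median member peak was 3468, 3660, 2550 and 1908 bp, so both genes lay far above it in each list, and H3K27me3 was absent from both starts throughout. A second gene, 4933436C20Rik, starts within the Irx5 window, and their peaks cannot be told apart. Irx4, a ventricular regulator of the heart, had H3K4me3 peaks of 7766, 6111, 5983 and 5168 bp and neither of the other marks at its start in any list. Six5 had 5373, 4275, 4215 and 3829 bp of H3K4me3.

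The remaining 5 of these genes had H3K27me3 in both non-HFSC lists and in neither HFSC list, as 2.06% of all genes did. By age, H3K27me3 was at 5 members in non-EA-HFSCs and not in EA-HFSCs (5.02% of all genes), and at 24 in non-LC-HFSCs and not in LC-HFSCs (8.57% of all genes). Irx1 had H3K4me3 peaks of 7158, 5729, 4698 and 4555 bp in the 4 populations, and H3K27me3 peaks of 9991 bp in non-EA-HFSCs and 5054 bp in non-LC-HFSCs. At Irx3 H3K4me3 reached 5967, 5761, 5640 and 3687 bp, and H3K27me3 7755 bp and 7165 bp in the non-HFSC lists, where it lay upstream of the start and covered 1886 and 1033 bp of the window. Both Iroquois genes thus had wide H3K27me3 peaks in the CD34- cells of each age and none in the CD34+ cells. Dlx3, needed for the hair shaft, had H3K4me3 peaks of 9288, 4133, 3427 and 2415 bp. H3K27me3 at Dlx3 was 4025 bp wide in non-EA-HFSCs, with a score of 58.2, and 899 bp in non-LC-HFSCs, with a score of 41.2. These scores, those of Msx2 (68.4 and 49.5) and that of Dlx4 in non-LC-HFSCs (60.5) lay below the list medians of 79.6 and 70.7, while Dlx4 in non-EA-HFSCs (106), Irx1 (1351 and 355) and Irx3 (1155 and 505) lay above them. Pax4, a pancreatic endocrine regulator, was the only member with H3K27me3 in EA-HFSCs and not in non-EA-HFSCs, where 2.51% of all genes were. Its peak scored 122 in EA-HFSCs and 88.3 in non-LC-HFSCs. The non-HFSC sample mixes cell types, so that a start with both marks there can reflect different cells.

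**Figure D4:**
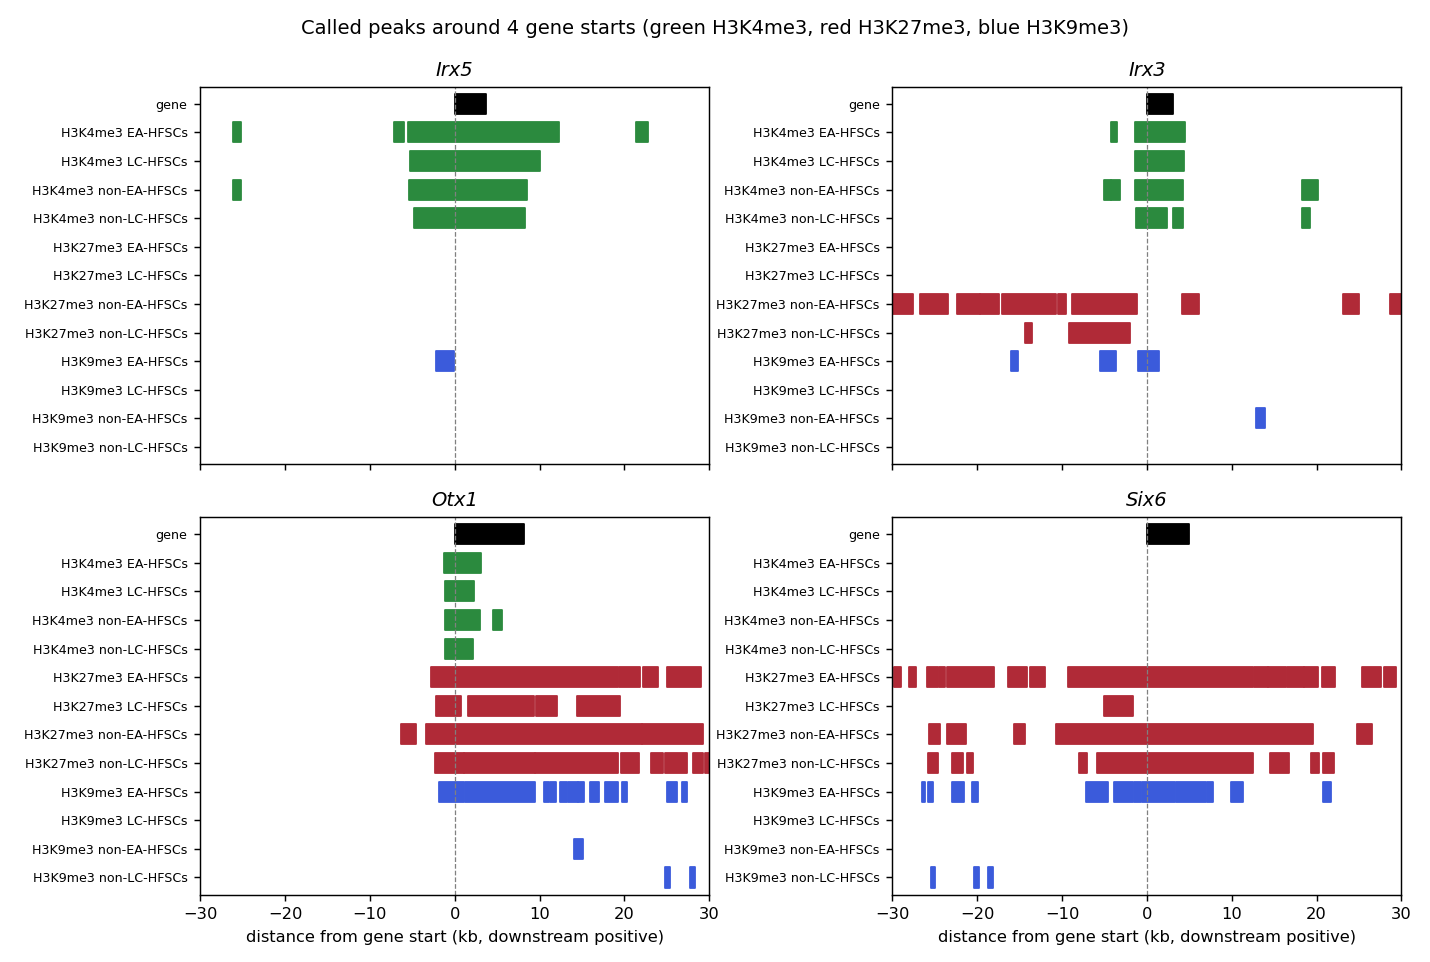
Called peaks (bars) within 30 kb of the starts of Irx5, Irx3, Otx1 and Six6, by distance from the start (x axis, kb, downstream positive), with 1 row for each of 12 lists and the gene body in black. Irx5 has H3K4me3 of 13115 bp or wider in every list and no H3K27me3, Irx3 has H3K27me3 only in the non-HFSC rows, Otx1 has both marks in all populations, and Six6 has H3K27me3 without H3K4me3.

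H3K27me3 remained listed in LC-HFSCs at 21 of the 40 members that had it in EA-HFSCs (52.5%, interval 37.5% to 67.1%), and no member gained it. Over all genes with an EA-HFSC peak, 25.5% kept one. The members' peaks scored high, and the share of all genes that kept a peak rose with its EA-HFSC score, from 1.60% below the median of the list to 10.9% between the median and the top 10%. Within the top 10% of the EA-HFSC list, 20 of 35 members (57.1%) and 49.0% of all such genes kept H3K27me3, a smaller distance than that between 52.5% and 25.5%. With only scores of at least 100 counted, 11 members had H3K27me3 in LC-HFSCs. In non-HFSCs 43 of 44 members kept it, with 70.9% of all genes as background. Vax1 was the member lost and Pax4 the member gained.

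At all 21 members the widest peak was narrower in LC-HFSCs than in EA-HFSCs, with medians of 8866 and 21735 bp. Over all genes with a peak in each list, whether kept or not, the medians were 3755 and 3581 bp. The share of all genes keeping H3K27me3 whose widest peak was narrower was not counted. Among Pax genes, Pax1, which acts in the sclerotome, had H3K27me3 peaks of 18763, 11030, 15919 and 13084 bp. Pax9, which acts in tooth and thymus, had 26939, 15804, 26470 and 17876 bp. Their 7 relatives Pax2 to Pax8 had no H3K27me3 at the start in LC-HFSCs, although Pax6, the eye regulator, had 46841 bp in EA-HFSCs and 47306 and 44365 bp in the non-HFSC lists.

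Of the LIM homeobox genes, Lhx1, a head and kidney regulator, kept nearly its full width, with 22474, 21627, 25321 and 22410 bp. Lhx5, a forebrain gene, had 20226, 12635, 21286 and 18816 bp, and Lhx8, which acts in forebrain and tooth, 20647, 4909, 20113 and 9024 bp. The fall in LC-HFSCs was thus small at Lhx1 and large at Lhx8, where 799 bp of the window stayed covered. In non-LC-HFSCs the Lhx8 window held 2 peaks that covered 5980 bp of it. Six2, a nephron progenitor gene, had 14787, 8866, 21061 and 20700 bp. Six4 had 12414, 7372, 25960 and 14464 bp. Six6, an eye and pituitary gene with the highest EA-HFSC score of all members (3218), had 21735, 3408, 30282 and 18434 bp, so that a high score in EA-HFSCs did not go with a wide peak in LC-HFSCs here. Irx6 was the only Iroquois gene with H3K27me3 in the HFSC lists, at 5638, 3595, 11128 and 5287 bp.

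Dlx1, an interneuron gene, had H3K27me3 peaks of 15931, 7769, 19740 and 18602 bp. At Dlx5, a skeletal regulator, they were 34977, 11041, 46622 and 14009 bp, and the LC-HFSC peak touched 142 bp at the edge of the window. Its neighbour Dlx6, 18751 bp away, shared its widest peak with Dlx5 in EA-HFSCs and non-EA-HFSCs, and lacked a peak in LC-HFSCs. The window of Dlx5 held 3 peaks in EA-HFSCs, and 1 in each other list, so the pair is not independent in the anagen lists.

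The Nkx family held 6 of the 21. Nkx2-1, a thyroid and lung regulator, had 17704, 14819, 21194 and 19103 bp of H3K27me3, and Nkx2-2, which acts in pancreas and spinal cord, 23125, 7156, 26981 and 12169 bp. Nkx2-6 had 22459, 8831, 13263 and 9642 bp. At Nkx3-2, a cartilage gene, the widths were 29909, 22980, 31802 and 27173 bp, the widest in LC-HFSCs of all members. Nkx6-1, a beta cell regulator, had 30391, 7020, 31076 and 31004 bp, and Nkx6-2, a glial gene, 9159, 5833, 12476 and 9079 bp. Nkx2-3 and Nkx2-5, the cardiac regulator, had 47995 and 29993 bp in EA-HFSCs and no peak in LC-HFSCs.

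Msx1, which acts in tooth and palate, had 27030, 13004, 30805 and 22205 bp. The cortical gene Emx1 had 11915, 9452, 23156 and 13496 bp, and Otx1, also a brain regulator, 22116, 7752, 25410 and 8301 bp. In non-LC-HFSCs the widest Otx1 peak, from 1108 to 9408 bp of the start, lay between close neighbours. They ran from -2288 to 1081 bp and from 9492 to 19207 bp, so its width understates the covered stretch. In LC-HFSCs the peak ran from 1619 to 9370 bp, with others from -2218 to 789 bp and from 9550 to 12088 bp. Vax1, a ventral forebrain gene, was the only member with H3K27me3 in LC-HFSCs (14508 bp) and not in non-LC-HFSCs, a pattern of 0.0537% of all genes. It had 42676 bp in EA-HFSCs and 44128 bp in non-EA-HFSCs. Vax2, an eye gene whose promoter is shown above, went from 23488 bp in EA-HFSCs to no peak in LC-HFSCs, with 45852 and 26449 bp in the non-HFSC lists. A wide peak in EA-HFSCs did not mark the members that kept the mark, since the median widest peak was 21735 bp in the 21 kept and 29993 bp in the 19 lost. The median EA-HFSC score was 2789 in the kept and 1545 in the lost, and H3K4me3 was present in EA-HFSCs at 17 of 21 and 8 of 19. The same split was not counted over all genes. Among all genes with both marks in EA-HFSCs, 12.5% kept both and 15.4% had H3K27me3 alone in LC-HFSCs. Among all genes with H3K27me3 alone in EA-HFSCs, 21.9% kept that state.

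H3K4me3 was listed at more members in anagen than in late catagen. EA-HFSCs had it at 34 of 49 (69.4%, interval 55.5% to 80.5%), beside 60.4% of all genes, and non-EA-HFSCs at 33, beside 59.6%. LC-HFSCs had 19 (38.8%, interval 26.4% to 52.8%), beside 53.9%, and non-LC-HFSCs 27, beside 56.6%. With equally many peaks taken from each list of the mark, by score, the 4 counts were 27, 19, 23 and 22. The other homeobox genes had 70, 33, 61 and 43 of 98, and the Hox cluster genes 28, 19, 27 and 23 of 39. It was listed in all 4 populations at 18 members (52.9% of all genes), among them all 9 without H3K27me3 in EA-HFSCs, and in at least 1 at 35 members (62.0% of all genes). The 14 without it include Pax1, Pax6, Pax9, Lhx3, Six3, Six6 and Otx2.

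From EA-HFSCs to LC-HFSCs 19 of 34 members kept H3K4me3 (55.9%, interval 39.5% to 71.1%), while 89.0% of all genes did. In non-HFSCs 27 of 33 kept it, and 94.3% of all genes. No member gained it. The 15 members that lost it in HFSCs had weaker anagen peaks, with a median score of 271 against 1837 in the 19 that kept it. Below the median score of the EA-HFSC list, 3 of 16 members (18.8%) and 51.0% of all genes kept H3K4me3. Between the median and the top 10%, 8 of 10 members and 98.3% of all genes kept it, and within the top 10% 8 of 8 members and 99.6%. The loss was thus found mostly at low scores, and there the members kept the mark less often than the 51.0% of all genes, a difference that was not tested.

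Between HFSCs and non-HFSCs of the same age, H3K4me3 differed in presence at few anagen starts. It was in EA-HFSCs alone at 2 members (2.18% of all genes) and in non-EA-HFSCs alone at 1 (1.44%). Pax3 had a peak in EA-HFSCs alone, with a score of 69.5 and 2664 bp, and Nkx2-6 one of 104 and 1329 bp that touched 354 bp of the window. Nkx2-3, a gut and spleen gene, had one in non-EA-HFSCs alone, with a score of 129. These 3 scores lay far below the list medians of 612 and 462. Pax3 acts in melanocytes, and of their markers Mitf, Dct and Pmel had H3K4me3 in both anagen lists while Tyr, Tyrp1 and Sox10 had none. In late catagen, Nkx3-2 had H3K4me3 in LC-HFSCs (score 66.5) and not in non-LC-HFSCs, as 0.809% of all genes did. The reverse held for 9 members (3.57% of all genes), Pax2, Lhx1, Lhx6, Lhx8, Six2, Dlx6, Nkx6-1, Nkx6-2 and Emx1, whose non-LC-HFSC scores ran from 88.6 at Lhx8 to 242 at Nkx6-1, under that list's median of 713. All 9 had an H3K4me3 peak in EA-HFSCs, with scores from 52.0 at Lhx8 to 704 at Six2.

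Both marks were found at 25 of 49 starts in EA-HFSCs (51.0%), where 7.90% of all genes had both. LC-HFSCs had 7, against 1.01%, non-EA-HFSCs 29, against 9.48%, and non-LC-HFSCs 22, against 5.63%. With equally many peaks taken from each list of a mark, by score, the counts were 15 in EA-HFSCs, 14 in non-EA-HFSCs and 13 in non-LC-HFSCs. With a window of 1000 bp non-LC-HFSCs had 13, and with only scores of at least 100 counted LC-HFSCs had 2. Counting any annotated transcript start, the 4 populations had 30, 7, 33 and 27, so the state of some members depends on the start used. Peaks of separate ChIP libraries on a mixture of cells do not show both marks on 1 nucleosome. H3K27me3 alone was found at 15, 14, 15 and 22 members in the 4 populations, and at 5.15%, 2.37%, 6.08% and 6.28% of all genes. H3K4me3 alone was found at 9, 12, 4 and 5 members, and at 52.5%, 52.9%, 50.2% and 51.0% of all genes. Neither mark was found at 0, 16, 1 and 0 members, and at 34.5%, 43.7%, 34.3% and 37.1% of all genes. The 16 in LC-HFSCs include 7 of the 9 Pax genes, and the 1 in non-EA-HFSCs is Pax4.

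**Figure D5:**
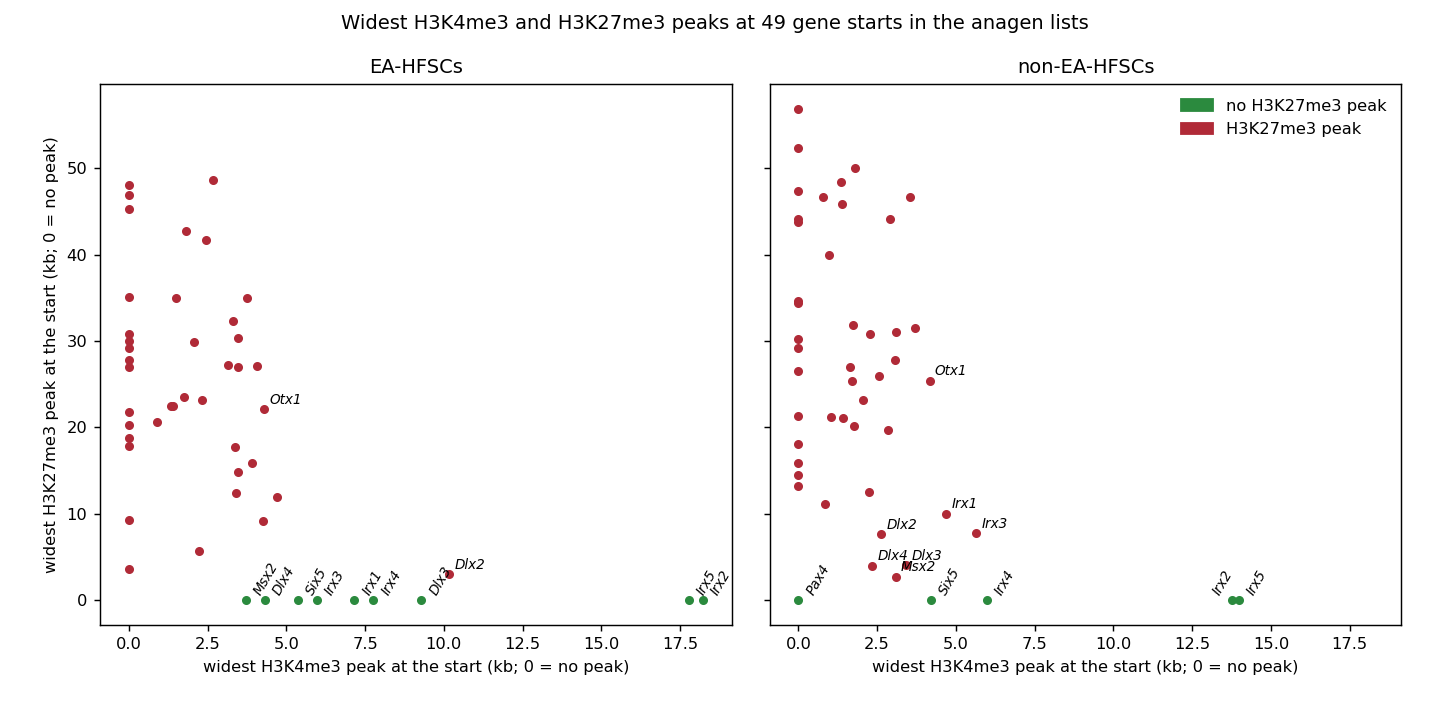
Width of the widest H3K4me3 peak (x axis, kb) against that of the widest H3K27me3 peak (y axis, kb) touching the window of each of 49 genes, with 0 for no peak, in EA-HFSCs and non-EA-HFSCs. Green points have no H3K27me3 peak. In EA-HFSCs the 9 green points run from 3725 to 18228 bp of H3K4me3, and in non-EA-HFSCs Irx1, Irx3, Dlx3, Dlx4 and Msx2 have H3K27me3, while Six5, Irx2, Irx4, Irx5 and Pax4 have none.

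The width and score of H3K4me3 differed between the states. In EA-HFSCs the 9 starts with H3K4me3 alone had a median widest peak of 7158 bp (3725 to 18228 bp), and the 25 with both marks 3301 bp (888 to 10165 bp). Their median scores were 3100 and 407. Dlx2, an interneuron gene, had the widest H3K4me3 peak among the 25, with 10165, 2834, 2627 and 1861 bp, beside a weak H3K27me3 peak in EA-HFSCs (score 55.8, 3000 bp) and none in LC-HFSCs. Most of its narrowing in LC-HFSCs fell outside the window, in which 3826 and 2834 bp were covered. H3K27me3 was wide in both states, with median widths of 23125 bp at starts with both marks and 27815 bp at starts with H3K27me3 alone.

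From EA-HFSCs to LC-HFSCs the states changed to different extents. All 9 starts with H3K4me3 alone kept H3K4me3 alone, as 94.1% of all such genes did. Of the 25 with both marks, 7 kept both, where 12.5% of all such genes did (Six4, Dlx1, Dlx5, Nkx3-2, Msx1, Otx1 and Vax1), 10 had H3K27me3 alone, 3 had H3K4me3 alone (Lhx4, Dlx2 and Emx2) and 5 had neither (Pax2, Pax3, Lhx6, Dlx6 and Vax2). Of all genes with both marks in EA-HFSCs, 15.4% went to H3K27me3 alone, 42.6% to H3K4me3 alone and 29.4% to neither. Of the 15 with H3K27me3 alone, Pax1, Pax9, Lhx5 and Six6 kept it and 11 had neither, while 21.9% of all such genes kept it and 78.0% had neither. In non-HFSCs 22 of 29 starts with both marks kept both, with 55.3% of all such genes, 6 had H3K27me3 alone, with 17.9%, and Vax1 had H3K4me3 alone, with 24.3%.

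H3K9me3 was found at 44 of 49 starts in EA-HFSCs (89.8%), with 45.2% of all genes as background, and at none in LC-HFSCs, with 0.295%. Non-EA-HFSCs had 3, namely Pax3, Nkx2-6 and Nkx6-1, against 2.80% of all genes, and non-LC-HFSCs 22, against 11.6%. The other homeobox genes had 83, 0, 9 and 35 of 98 and the Hox cluster genes 30, 0, 3 and 14 of 39. None of the 44 kept the mark in LC-HFSCs, where 0.425% of all genes did, and in non-HFSCs 1 of 3 kept it, with 39.0% of all genes. The mark was gained by 21 members in non-HFSCs, and by 10.9% of all genes that lacked it in anagen.

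The H3K9me3 peaks of EA-HFSCs were wide and strong at these genes. The median widest peak was 5890 bp (770 to 17497 bp), and 1300 bp over all genes with a peak, and 32 of the 44 held a peak in the top 1% of the list by score, as did 2.05% of all genes with a peak. Lhx9, a gonad and limb gene, had the widest (17497 bp), and Dlx6 the highest score (2060). In non-LC-HFSCs the peaks at the 22 members had a median of 695 bp and scores from 40.5 to 92.5. They were about as narrow as those of genes in general there (617 bp), and with only scores of at least 100 counted none was left.

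In EA-HFSCs the H3K9me3 peaks lay almost wholly on H3K27me3 peaks. Of 85 distinct H3K9me3 peaks at member starts, 80 (94.1%) overlapped an H3K27me3 peak of the same population, and 97.8% of their base pairs did. An H3K4me3 peak was overlapped by 45 (52.9%), with 22.5% of their base pairs. Of the 10944 H3K9me3 peaks at the starts of all genes, 27.5% overlapped H3K27me3 and 79.2% H3K4me3, with 33.4% and 74.0% of their base pairs. H3K27me3 covered 31 of the 40 member windows that had it from end to end, so most peaks there had to overlap it. The overlap among all genes with H3K27me3 was not counted, so the shares of members and of all genes are not matched for that mark. At 39 of the 40 members with H3K27me3 there was H3K9me3, and the median coverage of the window in the 40 was 5700 bp. Of the 9 without H3K27me3, 5 had H3K9me3, which covered a median of 1673 bp in those 5. With the members lacking H3K9me3 included, the median of the 9 was 912 bp. Over all genes, 69.7% of those with H3K27me3 and 41.6% of those without had H3K9me3. The exception with H3K27me3 was Pax4. The 5 members with H3K9me3 and no H3K27me3, Six5, Irx1, Irx3, Irx5 and Msx2, had scores from 40.5 to 102, and the 25 with both H3K4me3 and H3K27me3 had a median of 871.

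Over gene bodies the counts were close to those at starts. H3K27me3 covered some of the body of 40, 25, 43 and 41 members, with backgrounds of 14.7%, 3.81%, 17.0% and 13.4% of all genes. Members with a peak had a median of 95.9%, 44.4%, 100% and 97.0% of the body covered, and all genes with a peak 11.1%, 8.21%, 15.2% and 8.54%. In LC-HFSCs Pax2, Pax3, Pax5, Pax7, Lhx9 and Dlx6 had H3K27me3 over the body and none at the start, so that 6 of the 19 that lost it at the start still had a peak somewhere over the gene. H3K4me3 was over the body of 39, 18, 38 and 31 members, with backgrounds of 63.1%, 56.0%, 62.2% and 59.1%. Pax6, Pax9, Lhx5 and Lhx9 had it over the body and not at the annotated start in each list but that of LC-HFSCs, where no member did. H3K9me3 was over the body of 43, 0, 4 and 21 members, with backgrounds of 51.1%, 1.46%, 13.4% and 22.2%. With only scores of at least 100 counted, H3K9me3 was over 37, 0, 0 and 0 bodies, and H3K27me3 over 14 in LC-HFSCs.

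The promoters of the members held more CG dinucleotides than those of genes in general, by their medians. In the 250 bp before the start, the median number of CG was 13.0 in the members (2 to 26) and 8.00 in 22362 protein-coding genes. The ratio of observed to expected CG was taken over 500 bp to each side of the start, and its medians were 0.669 and 0.549. By state in EA-HFSCs this ratio had a median of 0.817 at the 9 starts with H3K4me3 alone, 0.674 at the 25 with both marks and 0.571 at the 15 with H3K27me3 alone. The lowest of the 9 was 0.674, and the highest of the 15 was 0.829, so the ranges overlap. A ratio of 0.6 or more was found at 9 of 9, 23 of 25 and 6 of 15, which is 38 of 49 members (77.6%), and at 45.6% of all genes. The homeodomain core TAATTA, which reads the same on both strands, was in 1 of 49 promoters, that of Otx2 (2.04%), and in 4.59% of all promoters.

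Some members lie side by side, which limits how far they count as separate. Within 200 kb of each other were the starts of Pax1 and Nkx2-2, Pax9 and Nkx2-1, Six2 and Six3, Six4 and Six6, Dlx1 and Dlx2, Dlx3 and Dlx4, and Dlx5 and Dlx6, and only the last pair shared a peak. Neighbours could differ, as Six6 had no H3K4me3 in any list and Six4 had it in all 4. Dlx2 and Dlx1, 18641 bp apart, both had H3K4me3 in all 4 populations, and in LC-HFSCs only Dlx1 had H3K27me3. In 12 of the 49 windows another annotated gene starts, protein-coding in 2 (Irx5 and Six6), and includes the antisense genes Pax6os1, Emx2os and Vax2os1, so peaks there cannot be told apart between the genes.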

How the data were processed

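ChIP-seq for H3K4me3, H3K27me3 and H3K9me3 was available for 4 populations, as 12 lists with 219698 peaks. The labels hold 16 samples, of which 4 are IgG controls that served for peak calling. The authors trimmed reads with Trimmomatic 0.22, aligned them to mm9 with Bowtie2, pooled replicates and called peaks with MACS against IgG of the same population. The deposited score of each peak is 10 times the negative log10 p-value, and its lowest values are 50 for H3K4me3 and 40 for the other marks.

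Windows reached 3000 bp to either side of the gene start of GENCODE vM1 (the most upstream start), and an overlap of 1 bp counted. Python 3.11.15 with numpy 2.4.6 gave the counts, widths and covered lengths, pysam 0.24.0 read the genome, and figures were drawn with matplotlib 3.10.9. On 2000 simulated windows all were called as made. Shares of all genes were counted the same way for comparison, and no test was run, since each group is 1 list. Kept shares split by score, markers at any transcript start, and shares of all genes by state and by pair of lists were added after the values were seen.

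The members and lists were chosen with earlier results of these data known. Named with values are the members without H3K27me3 in EA-HFSCs, those with it in LC-HFSCs, the highest-scoring of each family, the 3 widest for H3K4me3, and those whose H3K4me3 presence differed between HFSCs and non-HFSCs. Other genes named were chosen after their values were seen. The 733 peaks on unplaced sequence were not used for genes.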

Additional observations from a re-analysis of the deposited data

Results flagged for a closer look

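As listed, H3K9me3 at member starts moved in opposite directions with age in the 2 kinds of cells. It fell from 44 of 49 members in EA-HFSCs to 0 in LC-HFSCs, and rose from 3 in non-EA-HFSCs to 22 in non-LC-HFSCs. The rise in non-HFSCs did not hold with scores of at least 100 (0 and 0 members), and was from 0 to 1 with equally many peaks per list, taken by score. The difference was not tested, since each count comes from 1 pooled list. All genes moved the same ways, from 45.2% to 0.295% in HFSCs and from 2.80% to 11.6% in non-HFSCs.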

How the results depend on the processing

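Of 206 recomputed values under the alternatives, 181 stayed within 1.5 times the reported value and 25 did not. None of the 22 values recomputed with a window of 2500 bp, with any transcript start or with at least 500 bp of the window covered moved that far, nor any of the 8 widths with peaks less than 1 kb apart merged. A score of at least 100 left H3K27me3 in LC-HFSCs at 11 starts and 14 bodies, 11 members keeping it in HFSCs and 2 with both marks in LC-HFSCs. In non-LC-HFSCs H3K9me3 was at 8 starts with a window of 1000 bp, 11 with a score of at least 50, 0 with at least 100 and 1 when each list was cut to equally many of its best-scoring peaks, and over 0 bodies in the last 2 settings. In non-EA-HFSCs both score minimums and equal peak numbers left 0 starts, and 2, 0 and 0 bodies. In the same settings and with 1000 bp, 0 members kept it in non-HFSCs. Both marks were at 15 members in EA-HFSCs, 14 in non-EA-HFSCs and 13 in non-LC-HFSCs with equal peak numbers, which also left H3K4me3 over 23 bodies in non-EA-HFSCs, and at 13 in non-LC-HFSCs with 1000 bp. The cause was not tested. Replicates were pooled in the lists, so none could be left out. No paired analysis was possible because each group is 1 list. Read numbers are not part of the lists. The median LC-HFSC score of H3K27me3 at members was 102, with a threshold of 40.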
